A study of Canis lupus familiaris with 34 samples.

Results

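MAOA, ZBTB16 and 8 genes known to respond to glucocorticoids (FKBP5, TSC22D3, PER1, NR3C1, KLF9, SGK1, DUSP1 and PDK4) were followed through 34 arrays of cultured cells and primary tumor cells from dogs. The 10 genes are 10 of 15115 genes that could be named on the array, and they were read by 26 probe sets, each of which carries the symbol of 1 gene in the array annotation. MAOA and ZBTB16 were chosen by their measured difference, a lower level in hemangiosarcoma than in hematoma on these arrays, so their values in that comparison are a description and were not tested. The same holds for their values in hemangiosarcoma against osteosarcoma, since the same hemangiosarcoma arrays are used. The question was whether the 8 steroid-responsive genes differed between the same groups and moved with MAOA and ZBTB16.

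The arrays came from 10 hemangiosarcoma tumor cell lines of the spleen, 3 cultures of splenic hematoma (a benign, blood-filled lesion), 5 osteosarcoma lines from bone, and primary cells of 3 leukemias and 13 lymphomas. Golden Retrievers gave Tucker, Frog, Journey, ChadG4, ChadG6 and ChadG8 among the hemangiosarcoma lines, while Joey came from a Rottweiler, DD1 from a Golden Retriever cross, ChadP9 from a Portuguese Water Dog and Dal4 from a Dalmatian. The methods state that Frog and Journey came from related dogs. The hematoma cultures were Pippin (Golden Retriever), Baxter (Standard Poodle) and Kylie (Keeshond), and the osteosarcoma lines OSCA20, OSCA23, OSCA59, OSCA75 and OSCA71 were all from Golden Retrievers. The leukemias were 1 acute lymphoblastic (Rascal) and 2 chronic lymphocytic (Maddle and Forrest), and the lymphomas were 6 diffuse large B cell, 1 marginal zone (Bitsy) and 6 T-zone. These dogs were Golden Retrievers, except for Rascal, a mix of that breed. The hemangiosarcoma lines and hematoma cultures were grown under conditions meant to favor endothelial cells. The methods state that tumor cells were used at the earliest passages at hand, and describe the hematoma cultures as low passage. How the osteosarcoma lines were grown is not given in the sources used here. The labels give no ages. The paper lists an age and a sex for each dog, and neither was used here. MAOA and TSC22D3 lie on the X chromosome, and the part of sex in their values was not tested. The methods place blood sampling of dogs with tumors before therapy or at necropsy. Steroid use in the single dogs and the make-up of the culture medium are not given in the sources used here.

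Cortisol and related steroids enter cells and bind the glucocorticoid receptor, the product of NR3C1, which then moves to the nucleus and changes the transcription of its target genes. FKBP5, TSC22D3, PER1, KLF9, SGK1, DUSP1, PDK4 and ZBTB16 are widely used as readouts of this activity, although each of them also answers to other signals. MAOA encodes the mitochondrial enzyme monoamine oxidase A, which breaks down serotonin and catecholamines, and its promoter is also known to respond to glucocorticoids. ZBTB16 encodes PLZF, a zinc finger repressor of transcription that is also used by some lymphocytes.

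All values below are log2 intensities as the authors deposited them, and an intensity of 1 probe set was never set against that of another gene. The median of an array lay between 5.57 and 5.77, and probe sets below it are close to background. At the level of RNA, the marker check went against a plain endothelial reading of the cultures. The paper reports that the cultures expressed antigens typical of cells that form blood vessels, which RNA levels do not measure. Of 10 endothelial markers, only KDR lay above the array median on most hemangiosarcoma arrays (8 of 10), CLDN5 did so on 5 of 10, and 3 markers did so on 2 of the 3 hematoma arrays. PECAM1 and CDH5 were below it on every array of both groups. Of 13 mural cell and fibroblast markers, 11 were above it on most arrays of both groups. Of 7 osteoblast markers, 1 was above it on most osteosarcoma arrays. T cell markers averaged 10.65 in T-zone lymphoma and 10.67 in chronic lymphocytic leukemia, and B cell markers 8.91 in diffuse large B cell lymphoma. In such bulk samples, fewer cells of a type and less RNA per cell cannot be told apart. Hybridization controls, RNA spiked in at a fixed amount, read 9.25 to 9.78 in hemangiosarcoma and 9.45 to 10.16 in hematoma, and 10.00 to 11.32 on all other arrays, so that every hemangiosarcoma array lay below every array of osteosarcoma, leukemia and lymphoma. With 1 array per dog, p values measure the spread between these arrays.

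**Figure D1:**
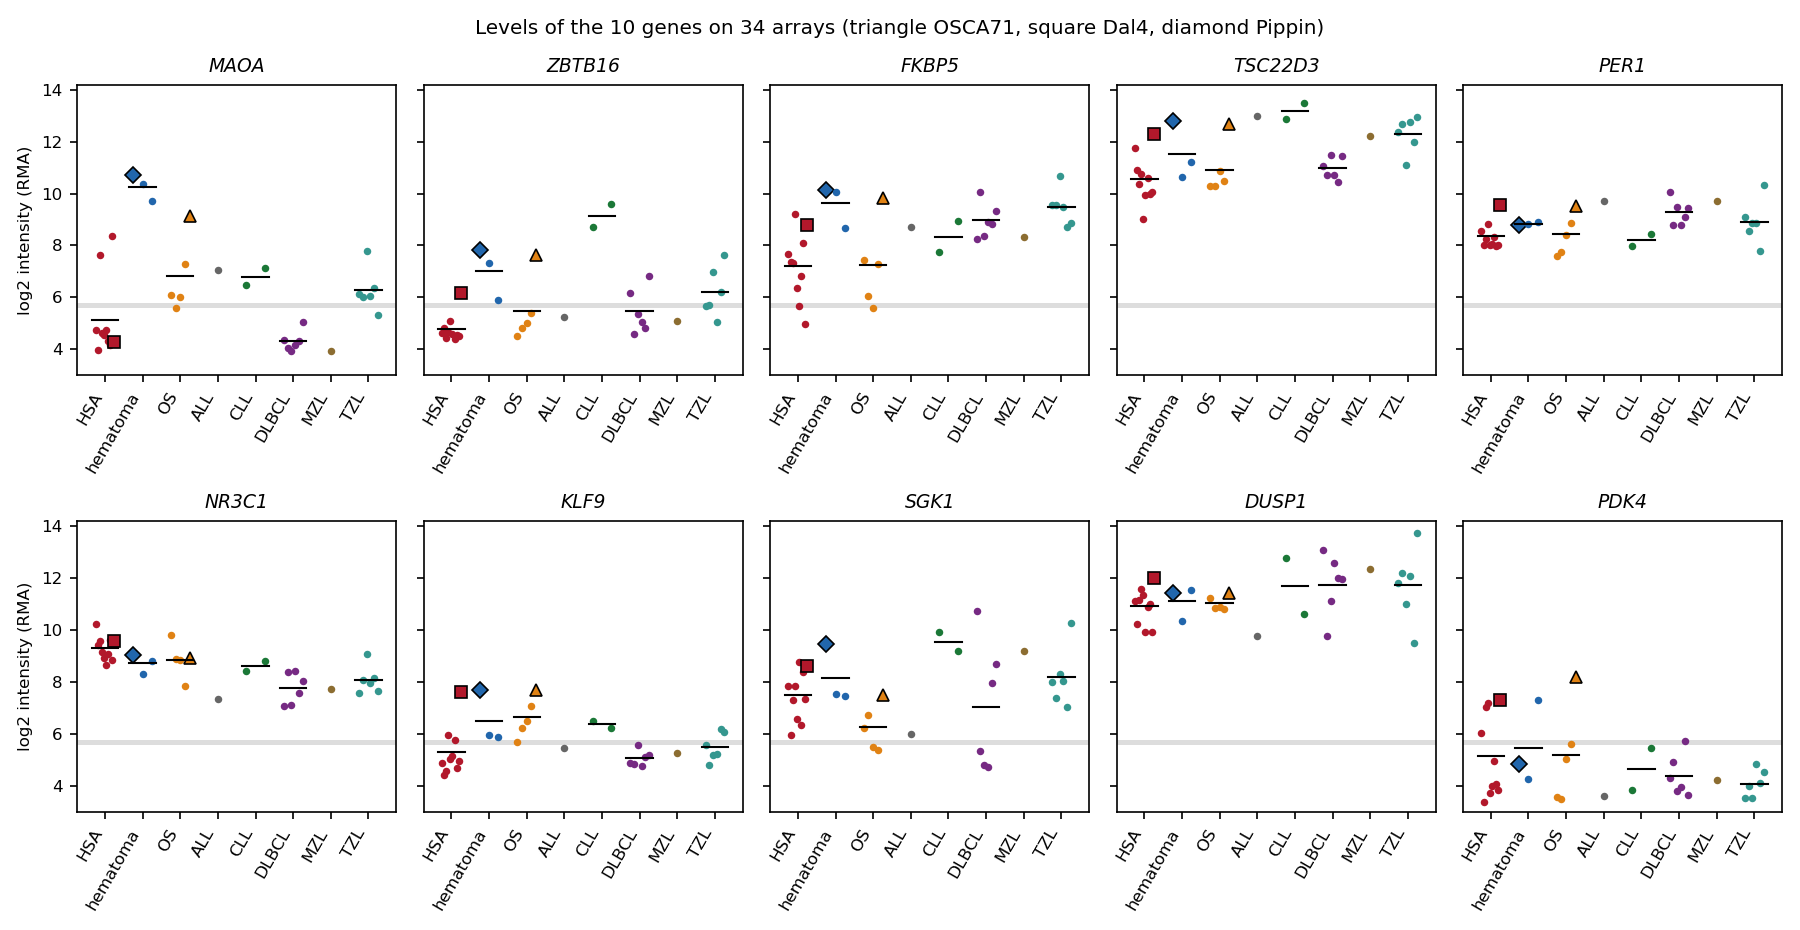
Levels of the 10 genes as log2 intensity (vertical axis) on each of 34 arrays, by tumor type (horizontal axis: HSA hemangiosarcoma, OS osteosarcoma, ALL and CLL leukemias, DLBCL, MZL and TZL lymphomas). Points are arrays, black lines are group means, the grey band spans the array medians (5.57 to 5.77), and the outlined triangle, square and diamond mark OSCA71, Dal4 and Pippin. MAOA was 9.70 to 10.72 in the 3 hematoma cultures and 3.98 to 8.36 in the 10 hemangiosarcoma lines, and ZBTB16 was highest in the 2 chronic lymphocytic leukemias.

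MAOA was the gene that set hematoma apart. Its log2 level was 10.72 in Pippin, 10.37 in Baxter and 9.70 in Kylie. In the 10 hemangiosarcoma lines it ran from 3.98 (ChadG6) over a median of 4.60 to 8.36 (ChadP9). The groups did not overlap, and 8 of the 10 lines lay below their array's median. The 2 lines above it were ChadP9 and ChadG8, the latter at 7.63. The mean difference was -5.12 on the log2 scale, between 5.15 ± 1.53 (SD, n = 10) and 10.26 ± 0.52 (SD, n = 3). The second probe set of MAOA gave -5.66. Since most of the lines are near background, the difference on this scale may understate the change. Groups without overlap and lower in hemangiosarcoma made up 0.562% of the 23292 probe sets tested, which is background only, since MAOA was chosen for this difference.

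Outside hematoma, MAOA varied within most tumor types. In the osteosarcoma lines it was 5.61 in OSCA23, 6.0 in OSCA59, 6.09 in OSCA20, 7.28 in OSCA75 and 9.12 in OSCA71. Among the primary tumors it was 7.05 in the acute lymphoblastic leukemia, 6.47 and 7.14 in the chronic lymphocytic leukemias and 3.92 in the marginal zone lymphoma. T-zone lymphomas ranged from 5.32 to 7.79 and diffuse large B cell lymphomas from 3.93 to 5.05. Ordered by mean, hematoma came first and stood apart from the next group, osteosarcoma at 6.82. From there down, through chronic lymphocytic leukemia, T-zone lymphoma, hemangiosarcoma and diffuse large B cell lymphoma, each group overlapped with its neighbor.

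ZBTB16 was read by a probe set that moved and by another that was nearly flat. The first stands for the gene here, a choice made after the other had been seen to be flat. All results for ZBTB16 below rest on that choice unless the second probe set is named. On the first, the hematoma cultures had log2 levels of 7.84 (Pippin), 7.34 (Baxter) and 5.89 (Kylie). The hemangiosarcoma lines ran from 4.39 (Joey) over a median of 4.61 to 6.18 (Dal4), and 9 of the 10 lay below their array's median. The groups overlapped only through Dal4 and Kylie. The mean difference was -2.24, between 4.79 ± 0.53 (SD, n = 10) and 7.02 ± 1.01 (SD, n = 3). The second probe set gave 0.20, with hemangiosarcoma lines at 5.30 to 6.08 and hematoma cultures at 5.33 to 5.54, and the reason for the disagreement was not tested.

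The highest ZBTB16 levels were not in hematoma. The chronic lymphocytic leukemias Maddle and Forrest had 8.72 and 9.58 and stood apart from every other array, and both carried the T cell markers given above. T-zone lymphomas ranged from 5.06 to 7.62, diffuse large B cell lymphomas from 4.60 to 6.81, and 4 of the 5 osteosarcoma lines from 4.53 to 5.41. OSCA71, the fifth, reached 7.62. Below the chronic lymphocytic leukemias, neighbors in the order of means (hematoma, T-zone lymphoma, osteosarcoma, diffuse large B cell lymphoma, hemangiosarcoma) overlapped.

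MAOA and ZBTB16 did not have the same neighbors in the data. Over the 34 arrays, which are in clusters by tumor type, the genes most like MAOA by Pearson's r were MYH10 (0.67), a nonmuscle myosin, NID1 (0.65), a basement membrane protein, WFDC1 (0.65), ID4 (0.62) and PI15 (0.61). Among 15114 genes ZBTB16 ranked 87 for likeness to MAOA, KLF9 131, PDK4 1778, TSC22D3 1811, FKBP5 1814, SGK1 3503, NR3C1 3935, PER1 7027 and DUSP1 11030, with r from 0.48 for ZBTB16 to -0.20 for DUSP1. The likeness of MAOA and ZBTB16 is partly fixed by their choice, since the 34 arrays include the hemangiosarcoma and hematoma arrays that both were chosen on. The genes most like ZBTB16 were HPCAL4 (0.69), LY6G6C (0.67), DNAJC17 (0.67), PPP3CC (0.66) and LY6G6F (0.66), all highest in mean in chronic lymphocytic leukemia among hematoma, hemangiosarcoma, osteosarcoma and that leukemia. TSC22D3 ranked 9 for likeness to ZBTB16 with r of 0.65, SGK1 148, KLF9 157, MAOA 391, FKBP5 441, PER1 3033, DUSP1 3123, PDK4 6805 and NR3C1, with r of -0.16, 11250.

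In hemangiosarcoma against hematoma, none of the 8 steroid-responsive genes passed limma at an adjusted p of 0.1, while 0.266% of 23292 probe sets did. At an unadjusted p under 0.05 there was 1, FKBP5, and the methods' t-test after adjustment also gave 0. The difference was negative for 7 of the 8, with a median of -0.57 against 0.02 over all probe sets tested. These 8 differences share the same 3 hematoma arrays, and both values moved with single cultures. Without Pippin 6 were negative with a median of -0.43, without Kylie 5 with -0.72, and without Baxter 7 with -0.93.

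FKBP5, a co-chaperone that holds the glucocorticoid receptor in a state of low affinity and is itself induced by it, had the largest difference of the 8. Its level was 10.12 in Pippin, 10.06 in Baxter and 8.69 in Kylie. The hemangiosarcoma lines ran from 4.98 (ChadP9) over 7.34 to 9.20 (Frog). Frog and Dal4, at 8.80, lay above Kylie, and the other 8 lines lay below all 3 hematoma cultures. The difference was -2.39 (95% interval -3.99 to -0.79, SE 0.74), with an adjusted p of 0.340, and the second probe set gave -2.58 with an adjusted p of 0.284.

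The other induced genes differed by less. KLF9, a transcription factor of the Krüppel-like family, was 7.69, 5.95 and 5.88 in Pippin, Baxter and Kylie and 4.43 to 7.62 in the lines, a difference of -1.20 (adjusted p = 0.530). TSC22D3, which encodes the anti-inflammatory protein GILZ, was 12.78, 10.63 and 11.20 in the cultures and 9.01 to 12.31 in the lines, a difference of -0.97 (adjusted p = 0.597). For both, Pippin was the high culture and Dal4 the high line, and the groups overlapped. Without Pippin the differences were -0.61 for KLF9 and -0.35 for TSC22D3.

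SGK1, a kinase that regulates ion channels, differed by -0.65 (adjusted p = 0.734), and PER1, a repressor in the circadian clock, by -0.49 (adjusted p = 0.588). PER1 was nearly even in hematoma, at 8.80 to 8.91, and lay between 7.97 and 9.54 in the lines. PDK4, which restrains the entry of pyruvate into the citric acid cycle, differed by -0.31 and DUSP1, a phosphatase that shuts off MAP kinases, by -0.19. Their 95% intervals, -2.35 to 1.72 for PDK4 and -1.08 to 0.71 for DUSP1, leave room for differences either way. The signs of 3 genes turned without a single culture, SGK1 to 0.01 without Pippin, and PDK4 to 0.60 and DUSP1 to 0.04 without Kylie. Kylie also stood apart in its hybridization controls, at 10.16 beside 9.48 in Pippin, 9.45 in Baxter and 9.25 to 9.78 in hemangiosarcoma. An actin control of RNA integrity (3′ end over 5′ end) was 0.36 in Kylie, 1.74 in Pippin, 1.34 in Baxter and 1.31 to 2.52 in hemangiosarcoma. The part of these controls in the values was not tested.

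The receptor gene itself went the other way in sign. NR3C1 was 8.31 to 9.04 in the hematoma cultures and 8.67 to 10.24 in the hemangiosarcoma lines, a difference of 0.59 (95% interval -0.02 to 1.20, adjusted p = 0.529), and its other probe sets gave 0.30 and 0.60. Of the receptor's chaperones and cofactors and the enzymes that activate or inactivate cortisol, 12 were tested and 0 passed, with 1 at an unadjusted p under 0.05. Of other genes known to be induced by glucocorticoids, 0 of 25 passed (5 unadjusted), with 14 positive differences and a median of 0.09. Of genes known to be repressed by them, 0 of 7 passed (4 unadjusted), with 6 positive differences and a median of 1.45. The filter asked for 3 arrays above the median, and 3 of the 12 repressed genes on the array exceeded it on most hematoma arrays. Genes high in the hemangiosarcoma lines alone could thus enter the test. The signs and median of the repressed genes are partly fixed by this and are no support.

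Genes related to single members gave the same count. In hemangiosarcoma against hematoma 0 of 1 other steroid receptor, 0 of 2 genes of monoamine metabolism, 0 of 7 partners and relatives of PLZF, 0 of 6 clock genes, 0 of 14 immediate early genes, 0 of 13 genes of PDK4's family and fatty acid oxidation, 0 of 8 other DUSP genes and 0 of 7 relatives of SGK1, TSC22D3, FKBP5 and KLF9 passed. Unadjusted, the counts were 0, 1, 0, 2, 1, 3, 0 and 1. The share of all probe sets at an unadjusted p under 0.05 was not taken. The unadjusted counts here and in the lists above thus have no background beside them. With 0.266% of all probe sets passing after adjustment, lists this short would mostly give 0 in any case. Of the marker lists, 1 gene passed: PDGFRB, a receptor of mural cells, was lower in hemangiosarcoma by -2.44 (adjusted p = 0.073). The mean of the mural and fibroblast markers was 9.19 to 10.76 on the hemangiosarcoma arrays and 10.52 to 10.89 on the hematoma arrays, and its part in the values of MAOA, ZBTB16 and FKBP5 was not tested.

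**Figure D2:**
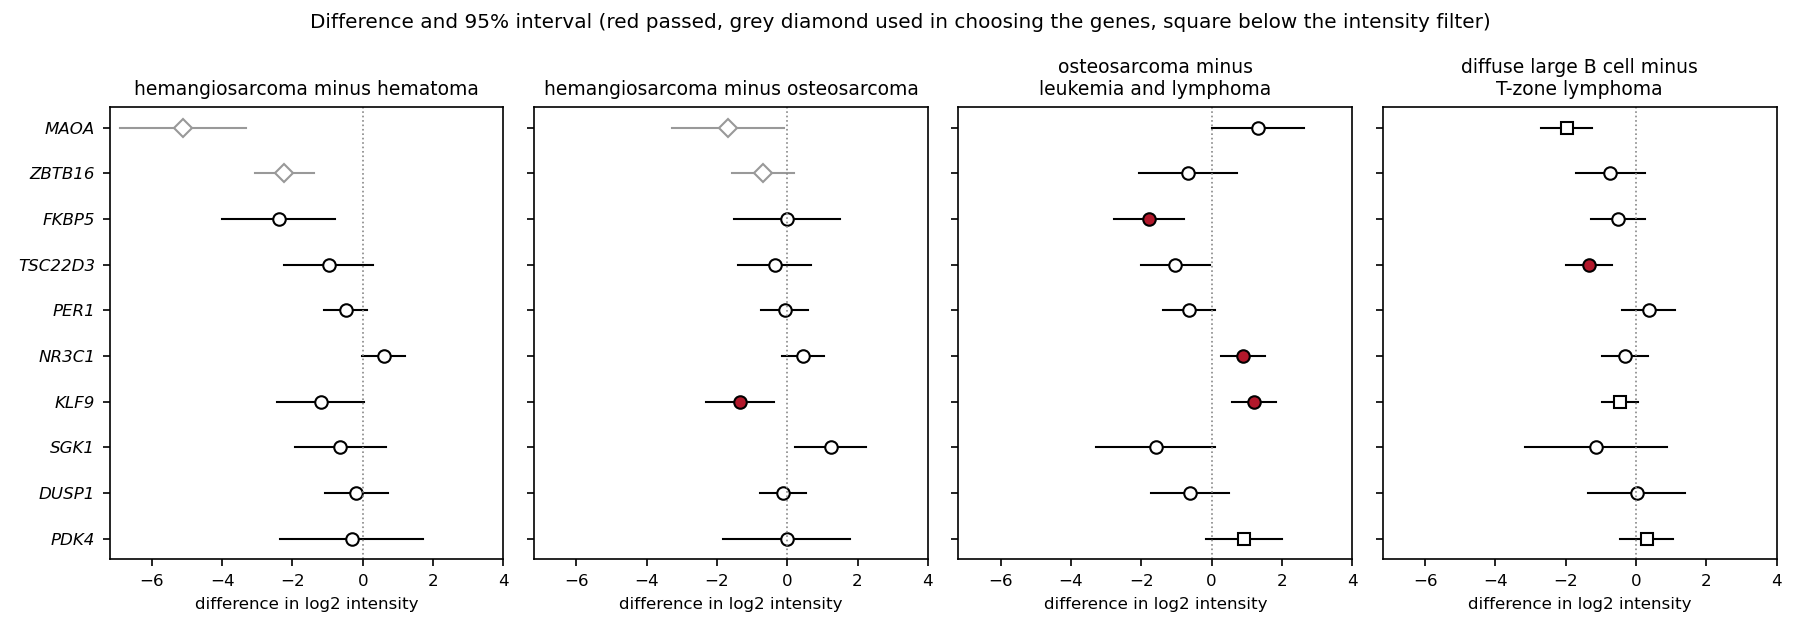
Difference in log2 intensity (horizontal axis) with its 95% interval for the 10 genes (vertical axis) in 4 comparisons, each the first group named minus the second. Red points passed the threshold, white points did not, grey diamonds were used in choosing the genes and were not tested, and squares lay below the intensity filter. FKBP5 lies below 0 against hematoma without passing, and the red points are KLF9 (-1.34) against osteosarcoma, FKBP5, NR3C1 and KLF9 in osteosarcoma against leukemia and lymphoma, and TSC22D3 (-1.33) in the lymphomas.

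Against osteosarcoma, 1 of the 8 genes passed at an adjusted p of 0.05, and 27.8% of 22857 probe sets did. KLF9 was lower in hemangiosarcoma by -1.34 (SE 0.45, adjusted p = 0.038). The osteosarcoma lines had 5.70, 6.24, 6.51, 7.06 and 7.71 (OSCA20, OSCA23, OSCA59, OSCA75 and OSCA71). Of the hemangiosarcoma lines, 7 lay below their array's median, and Frog (5.95), Joey (5.78) and Dal4 (7.62) reached into the osteosarcoma range. The intensity filter asked for 5 arrays above the median, which the hemangiosarcoma lines alone did not give. KLF9 thus entered the test through the osteosarcoma lines, where it is high. The call was lost without the intensity filter (adjusted p = 0.050) and by the methods' t-test (adjusted p = 0.060). It was also lost on leaving out any of ChadG4, ChadG6, ChadG8, Journey, DD1, ChadP9, OSCA23, OSCA59, OSCA75 or OSCA71, with adjusted p values from 0.052 to 0.106 and differences from -1.44 to -1.07.

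SGK1 leaned the opposite way. It was 5.95 to 8.76 in hemangiosarcoma and 5.38 to 7.48 in osteosarcoma, where OSCA71 was the highest, a difference of 1.24 (adjusted p = 0.064). Its 2 other probe sets passed, with 1.26 (adjusted p = 0.017) and 1.44 (adjusted p = 0.021). Without OSCA71 the first probe set gave 1.54 (adjusted p = 0.031), without ChadG6 1.41 (adjusted p = 0.030) and without Joey 1.37 (adjusted p = 0.044). The probe sets of NR3C1 disagreed, with 0.45 (adjusted p = 0.248), 0.63 (adjusted p = 0.232) and -1.06 (adjusted p = 0.014).

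FKBP5 did not separate the 2 sarcomas. Its means were 7.23 ± 1.32 (SD, n = 10) and 7.24 ± 1.65 (SD, n = 5), and the 95% interval of the difference was -1.53 to 1.51. TSC22D3 (-0.35), PER1 (-0.07), DUSP1 (-0.12) and PDK4 (-0.02) did not pass either. MAOA differed by -1.67 and ZBTB16 by -0.70, both as description, and without OSCA71 by -1.10 and -0.16. The second probe set of ZBTB16 gave -0.18. Of the other induced genes, 3 of 25 were higher in hemangiosarcoma and 4 lower, where 16.1% and 11.7% of all probe sets were. The higher ones were ERRFI1 (2.36), an inhibitor of the EGF receptor, CRISPLD2 (1.55) and ANXA1 (0.41). The lower ones were LCN2 (-3.17), an iron-siderophore carrier, ZFP36 (-1.70), which destabilizes cytokine mRNA, FOXO1 (-0.79) and MAP3K6 (-0.59). Of the repressed genes 1 of 6 passed, the collagenase gene MMP1, which was higher (2.99). The hybridization controls stood at 9.25 to 9.78 in hemangiosarcoma and 10.00 to 10.82 in osteosarcoma, and so arrays and tumor types cannot be told apart here.

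Osteosarcoma against leukemia and lymphoma sets cultured lines against primary cells, 5 arrays against 16. Of the 9 genes tested, 3 passed, and 41.3% of 24955 probe sets did. FKBP5 was lower in osteosarcoma, at 5.59, 6.05, 7.27, 7.46 and, in OSCA71, 9.82, against 7.74 to 10.66 with a median of 8.89 in the primary cells. Only OSCA71 lay inside the range of the primary cells. The difference was -1.78 (SE 0.48, adjusted p = 0.0053), and the second probe set gave -1.81.

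KLF9 and the receptor gene were higher in osteosarcoma. KLF9 differed by 1.21 (SE 0.30, adjusted p = 0.0027), from 5.70 to 7.71 against 4.78 to 6.50. All 5 osteosarcoma lines lay above their array's median for KLF9, which by itself met the filter of 5 arrays. KLF9 could thus enter the test through the osteosarcoma lines alone, where it is high, although its call held without the filter. NR3C1 differed by 0.90 (SE 0.30, adjusted p = 0.020), from 7.86 to 9.79 against 7.08 to 9.06, and lost the call without OSCA20, with 0.66 (adjusted p = 0.098). The ranges overlapped for both. The other probe sets of NR3C1 gave 1.20 (adjusted p = 0.033) and 0.66 (adjusted p = 0.207). MAOA was 1.31 higher (adjusted p = 0.101), and 1.63 higher when only the lymphomas were taken (adjusted p = 0.036), but the difference was -0.07 against the leukemias alone. TSC22D3 differed by -1.03 (adjusted p = 0.087), and by -1.47 without OSCA71 (adjusted p = 0.018).

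ZBTB16 (-0.68), PER1 (-0.64), SGK1 (-1.59) and DUSP1 (-0.61) did not pass, and PDK4 lay below the filter. A further probe set of SGK1 did pass, with -1.30 (adjusted p = 0.036). SGK1 spread widest in the primary cells, from 4.73 in Kaycee to 10.73 in Benson, both diffuse large B cell lymphomas. Against the 3 leukemias alone, FKBP5, NR3C1 and KLF9 lost their calls (adjusted p = 0.346, 0.343 and 0.403), and TSC22D3 passed with -2.20 (adjusted p = 0.021). Of the other induced genes, 9 of 27 were higher in osteosarcoma and 8 lower, beside 19.4% and 21.9% of all probe sets. LCN2 (4.02), ANXA1 (3.37), DDIT4 (2.57) and LIFR (1.94) led the higher ones, and IL7R (-3.45), SESN1 (-3.37), NFKBIA (-2.07) and TNFAIP3 (-2.06) the lower ones. Of 7 repressed genes 4 were higher (CCL2, ICAM1, PTGS2 and MMP13) and 2 lower (TNF and CXCL8). In the same comparison 9 of 10 mural and fibroblast markers were higher, and 4 of 5 B cell and 7 of 8 T cell markers were lower. The parts of cell type and culture in these values were not tested.

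The 2 lymphomas with 6 arrays each gave a comparison within primary cells. Of the 7 genes tested, TSC22D3 passed, and 18.5% of 21763 probe sets did. Diffuse large B cell lymphomas had TSC22D3 levels of 10.43 to 11.47 with a median of 10.90. T-zone lymphomas had 11.08 to 12.97 with a median of 12.51, and only Rose, the lowest, fell within the other group. The difference was -1.33 (SE 0.31, adjusted p = 0.0088), and the second probe set gave -1.50 (adjusted p = 0.023).

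MAOA also differed between these lymphomas but lay below the intensity filter. All 6 diffuse large B cell lymphomas were below their array's median, at 3.93 to 5.05 with a median of 4.24. T-zone lymphomas had 5.32 (Fire), 6.03, 6.06, 6.12, 6.36 and 7.79 (Rose), and 5 of the 6 were above it. The groups did not overlap, as was so, with the lower level in diffuse large B cell lymphoma, for 4.26% of the probe sets tested. The difference was -1.97, or -2.49 on the second probe set. A two-sided exact permutation test over the 12 arrays gave an unadjusted p = 0.0022, the smallest that 924 regroupings allow. Groups of 6 and 6 arrays without overlap always give this value, so the test adds nothing to the lack of overlap. The same test on the other genes followed gave p = 0.0065 for TSC22D3 and 0.0996 to 0.98 for the rest, also unadjusted. Without the filter, limma gave MAOA an adjusted p of 0.0028. On leaving out any of the 6 diffuse large B cell lymphomas or Fire, the filter asks for fewer arrays and lets MAOA in through its T-zone levels alone, which takes the count of genes called from 1 to 2 and is no further support. Since the lower group is near background, the difference on this scale may understate the change.

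No such difference was found for ZBTB16 (-0.73, adjusted p = 0.308), FKBP5 (-0.50), PER1 (0.36), SGK1 (-1.13) or DUSP1 (0.02). NR3C1 differed by -0.31 (adjusted p = 0.565), by -0.40 on a further probe set and by -0.99 on the last one (adjusted p = 0.045). Of the other induced genes, 7 of 23 were lower in diffuse large B cell lymphoma and 1 was higher, where 9.32% and 9.14% of all probe sets were. The lower ones included IL7R (-4.40), the receptor of interleukin 7 on T cells, BCL6 (-2.41), TGFBR3 (-1.89) and TNFAIP3 (-1.67), and the higher one was SESN1 (1.64). Of the repressed genes, 2 of 5 were lower, VCAM1 (-2.33) and ICAM1 (-1.34), both of them adhesion receptors. T cell markers were lower for 6 of 7 genes and B cell markers higher for 3 of 5, with a mean T cell marker level of 8.0 to 8.56 against 10.14 to 11.15, and their part in the values of TSC22D3 and MAOA was not tested. The actin control of RNA integrity, its 3′ end over its 5′ end, was 4.03 in Thunder and 3.30 in Fire and -0.30 to -0.05 in the other 4 T-zone lymphomas, beside 0.67 to 3.46 in diffuse large B cell lymphoma. Without Thunder and Fire the differences were -1.25 for TSC22D3 (adjusted p = 0.031) and -2.19 for MAOA. In that smaller set the actin control does not overlap between the groups, and it cannot be told apart from tumor type.

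Single arrays carried much of the spread within groups. OSCA71 was the highest of the 5 osteosarcoma lines for 9 of the 10 genes, all but NR3C1, while it was the highest for 23.7% of 21345 probe sets that passed the same kind of filter. Against the mean of the other 4 lines it was higher by 3.75 for PDK4, 3.23 for FKBP5, 2.87 for MAOA, 2.67 for ZBTB16 and 2.21 for TSC22D3. Only 0.06 separated it from the mean of the others for NR3C1. MAOA, ZBTB16 and 7 of the 8 steroid-responsive genes were thus highest on the same array. OSCA71 was named after its values were seen, and an array by itself allows no test.

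In Dal4 most of these genes were high and MAOA was not. This line was the highest of the 10 hemangiosarcoma lines for 6 of the 10 genes (ZBTB16, TSC22D3, PER1, KLF9, DUSP1 and PDK4), and the highest for 21.4% of 21603 probe sets. It stood above the mean of the other 9 by 2.57 for KLF9, 2.41 for PDK4, 1.93 for TSC22D3, 1.74 for FKBP5 and 1.55 for ZBTB16. For MAOA, at 4.29, the difference from their mean was -0.95. The reverse held in ChadP9, with the highest MAOA of the lines (8.36) and the lowest FKBP5 (4.98), and ZBTB16 at 4.53. Among the hematoma cultures Pippin was highest for 7 of the 10 genes, against 36.0% of 21510 probe sets, and Kylie, the lowest in MAOA, ZBTB16, FKBP5, KLF9 and SGK1, was the highest in PDK4 (7.29).

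**Figure D3:**
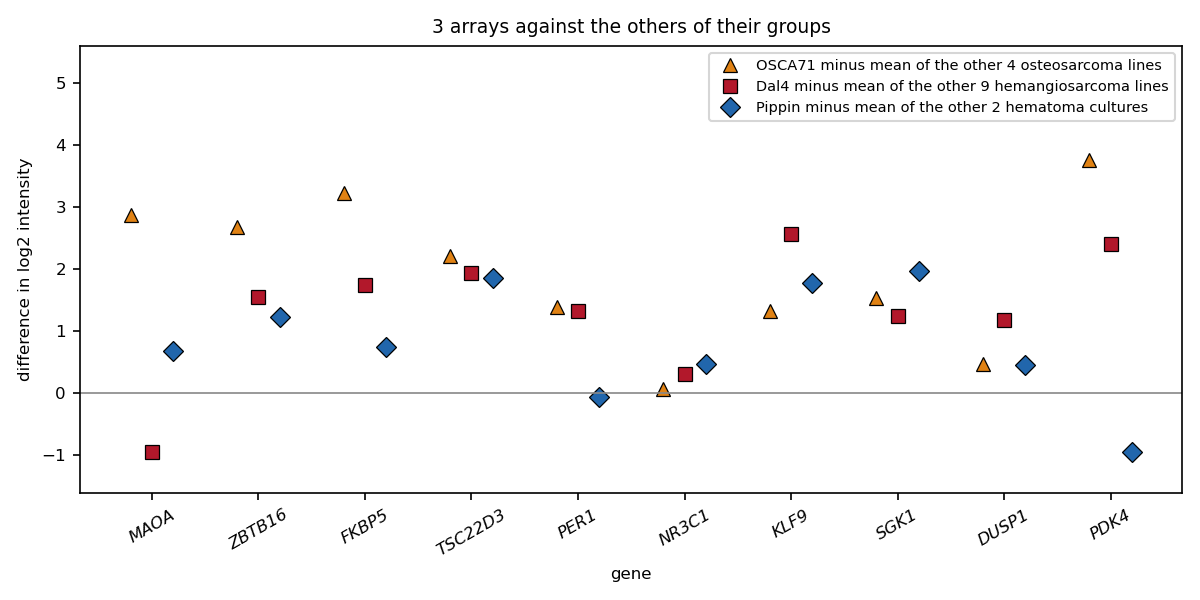
Log2 level of each gene (horizontal axis) on OSCA71, Dal4 and Pippin minus the mean of the other arrays of its group (vertical axis, difference in log2 intensity). OSCA71 lies from 2.21 to 3.75 above the other osteosarcoma lines for PDK4, FKBP5, MAOA, ZBTB16 and TSC22D3 and is level with them for NR3C1, and Dal4 lies above 0 for every gene but MAOA.

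Whether the genes moved together was also asked within tumor types, over 45 pairs in each. Within the 10 hemangiosarcoma lines 36 of the 45 pairs had a positive r, with a median of 0.41, and 9 had an unadjusted permutation p under 0.05. None passed an adjusted p of 0.05, though 4 pairs did without Journey and 1 without ChadG8. The closest was PER1 with PDK4 (r = 0.81, rho = 0.83, permutation p = 0.0013, adjusted p = 0.059), and r was 0.75 without Dal4 and Frog, the lines farthest from the median of PER1. PER1 with KLF9 had r = 0.89 (rho = 0.70, adjusted p = 0.085) but 0.28 without Dal4 and Frog. FKBP5 with DUSP1 had r = 0.79 (rho = 0.68, adjusted p = 0.085) and 0.67 without ChadP9 and Frog.

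MAOA had negative r with 8 of the other 9 genes in hemangiosarcoma, from -0.50 (FKBP5, rho = -0.52) to 0.08 (PDK4), and its lowest adjusted p was 0.316. MAOA lies in 2 clusters there, ChadP9 and ChadG8 above the array median and 8 lines below it. Over those 8 lines r was negative with 4 genes, down to -0.21 (FKBP5), and positive with 5, up to 0.43 (SGK1). The negative values with PER1, KLF9, SGK1 and DUSP1 thus rested on the other 2 lines. Those with ZBTB16, FKBP5, TSC22D3 and NR3C1 stayed negative. ZBTB16 had positive r with the 8 steroid-responsive genes, from 0.15 (NR3C1) to 0.77 (KLF9, rho = 0.25, adjusted p = 0.198). Without Dal4 and Journey r was -0.21 with KLF9, 0.11 with PER1 in place of 0.74, and -0.19 to -0.09 with PDK4, DUSP1 and SGK1, so that these rested on the pair of lines. It stayed near its value with TSC22D3 (0.50, then 0.42), FKBP5 (0.40, then 0.33) and NR3C1 (0.15, then 0.18). In every line but Dal4, however, ZBTB16 lay below the array's median, at 4.39 to 5.07. The r values without Dal4 and Journey are thus over levels close to background.

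In the lymphomas no pair passed either, with 3 pairs in diffuse large B cell and 5 in T-zone lymphoma at an unadjusted p under 0.05. With 6 arrays the smallest possible permutation p of 0.0014 is too large for a single pair to pass adjustment over 45 pairs, whatever its r. MAOA and TSC22D3, the genes that differed between the lymphomas, ran in opposite directions within T-zone lymphoma (r = -0.96, rho = -0.94, exact permutation p = 0.0028, adjusted p = 0.125), and r was -0.95 over the 4 arrays left without Rose and Fire. Thunder stayed among these 4. In the actin control Thunder (4.03) and Fire (3.30) stood apart from the other T-zone arrays (-0.30 to -0.05), and its part in the T-zone correlations was not tested. In diffuse large B cell lymphoma their r was 0.32 (adjusted p = 0.843). MAOA and ZBTB16 had r = 0.81 in diffuse large B cell lymphoma (rho = 0.60, adjusted p = 0.609) and 0.07 in T-zone lymphoma (adjusted p = 0.953). MAOA lay below the array's median on all 6 diffuse large B cell arrays, so its r values there are over levels close to background. The differences between the tumor types in these correlations were not tested.

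**Figure D4:**
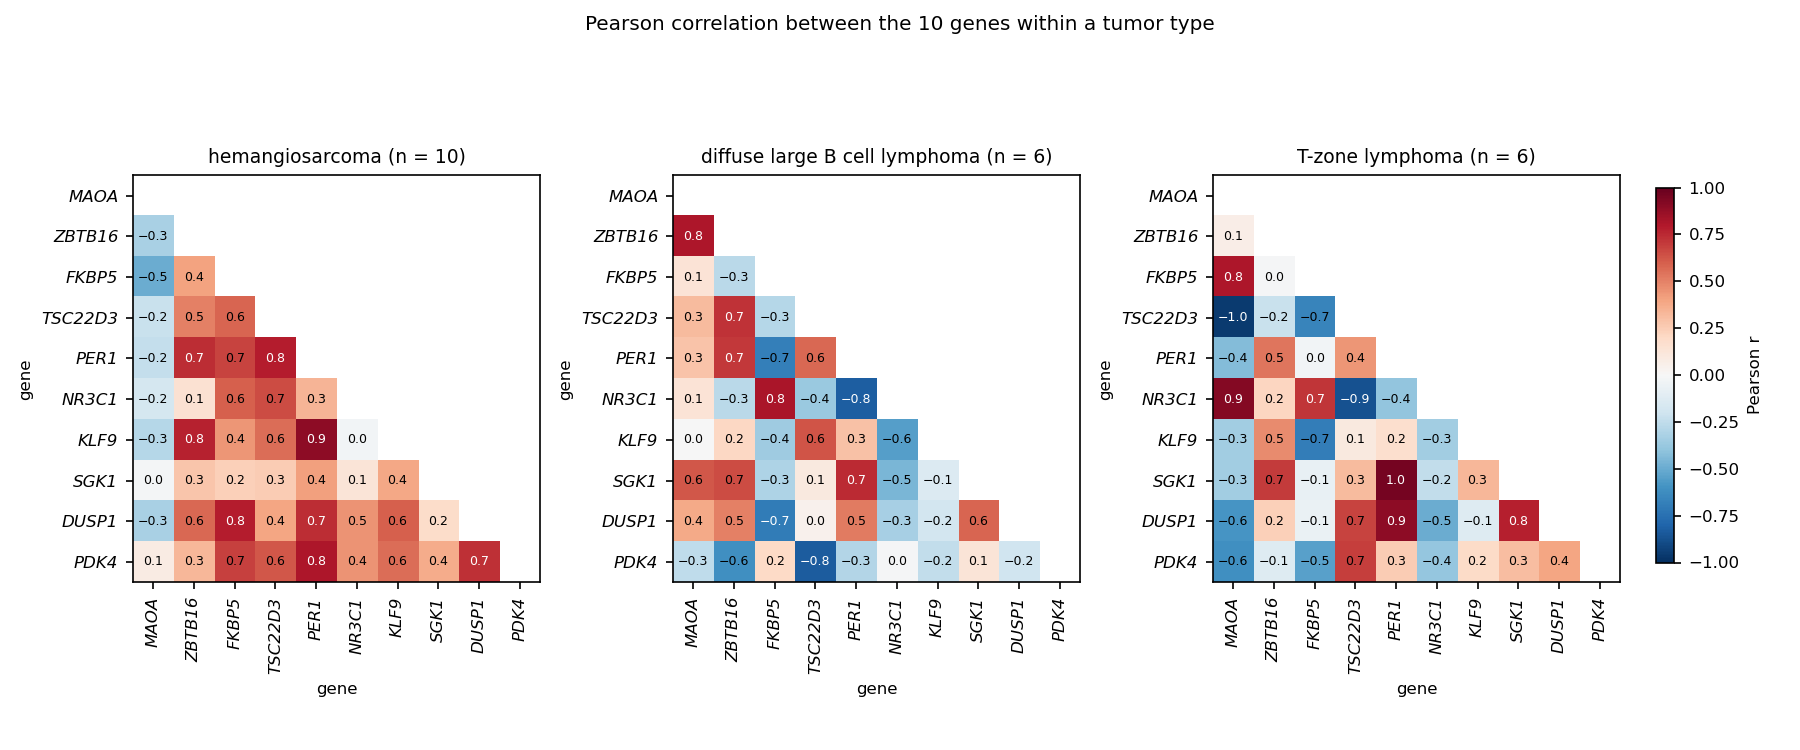
Pearson r for each pair of the 10 genes (both axes) within hemangiosarcoma, diffuse large B cell lymphoma and T-zone lymphoma, with color and number giving r. In hemangiosarcoma 36 of 45 values are positive while the MAOA column runs from -0.50 to 0.08, and no pair passed an adjusted p of 0.05 in any panel.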

How the data were processed

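The deposited table holds log2 values of 43035 probe sets on 34 Canine_2 arrays, which the authors made with RMA (affy); versions are not given in the sources used here. No further normalization was applied. Per-probe depth does not apply to arrays, and the number of arrays limits the precision. After 175 controls were left out, a probe set was tested where it exceeded the array's median at least as often as there are arrays in the smaller group. Groups came from the tumor type labels. The tests were those of limma (3.58.1, under R 4.3.3), and p values were adjusted by Benjamini-Hochberg over all probe sets tested, at 0.1 for hemangiosarcoma against hematoma and 0.05 otherwise, and the fits were tested on simulated data. The probe set with the highest mean stands for a gene, except for ZBTB16. For ZBTB16 the probe set of the study's list was taken, because earlier results showed the other to be nearly flat. The alternative that takes the probe set with the largest SD uses the same one for ZBTB16. Correlations used 100000 permutations (10 arrays) or all orders (6 arrays), adjusted over 45 pairs. Named are all 10 genes, called genes of the lists (at most 4 each way by size, printed for the glucocorticoid lists and markers), and the 5 genes most like MAOA and ZBTB16. The genes and lists were chosen with earlier results of these data known. Alternatives were other filters, priors, normalizations, array weights, probe sets and subsets, and leaving out arrays. Calculations outside limma used Python 3.11.15 and scipy 1.17.1.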

Additional observations from a re-analysis of the deposited data

Results flagged for a closer look

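In 40 sets of values (10 genes in the 4 groups with 4 to 10 arrays), 4 arrays lay far from the rest by Dixon's ratio, where chance gives about 1 in 20. ZBTB16 in Dal4 was 6.18, and the next hemangiosarcoma line was at 5.07. KLF9 in the same line was 7.62, and the next was at 5.95. ZBTB16 in OSCA71 was 7.62, and the next osteosarcoma line was at 5.41. TSC22D3 in OSCA71 was 12.69, and the next was at 10.86.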

How the results depend on the processing

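No paired analysis was possible because each array came from a separate dog or line and the replicate numbers were given in accession order. For hemangiosarcoma against hematoma, 0 of the 8 genes passed under every alternative, while the calls over all probe sets went from 62 to 7 without Baxter and 200 without Pippin. The differences of MAOA lay between -5.66 and -4.89 over these alternatives and both of its probe sets, and those of the moving probe set of ZBTB16 between -2.80 and -1.83, while its other probe set gave 0.20. Against osteosarcoma the count of 1 became 0 without the filter and by the methods' t-test, and 0 to 2 on leaving out arrays. For osteosarcoma against leukemia and lymphoma the count of 3 became 6 with array weights and 1 with the leukemias alone, and 2 to 4 on leaving out arrays. For the lymphoma comparison the count of 1 became 2 without the filter and 2 without Thunder and Fire, the latter chosen after seeing the data, and 1 to 2 on leaving out arrays, where fewer arrays are needed to pass the filter. In the lymphomas no pair passed under the alternatives run, which says nothing of stability, since with 6 arrays a single pair cannot pass. In hemangiosarcoma 0 to 4 pairs passed on leaving out arrays (also chosen after seeing the data), with 4 without Journey and 1 without ChadG8, and 0 otherwise. Among the differences of single genes under the alternatives, no call was reversed, 16 were lost and 9 gained. This leaves out MAOA in the lymphoma comparison, which had no test at the standard filter. It passed in each of the 9 alternatives that tested it. Except for the one without a filter, these let MAOA in through its T-zone levels alone, so they are no further support. The cause of the other shifts was not tested. Levels below the array median, as for MAOA in most hemangiosarcoma lines, are close to background and limit what can be measured.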
